A study of Mus musculus with 36 samples.

Results

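The clustered protocadherin genes were examined in mouse embryonic stem cells for the places at which an HA-tagged histone H4 was pulled down. Members were the protein-coding genes of chromosome 18 with a symbol of the Pcdha, Pcdhb or Pcdhg series in the RefSeq gene table (GRCm38.p6, the build named mm10), and there were 57 of 21887 protein-coding genes. Of these, 14 belong to the alpha cluster, 22 to the beta cluster and 21 to the gamma cluster. The study followed where wild-type H4 and H4K91 mutants are incorporated in mouse embryonic stem cells and in neural cells, and 4 HA ChIP-seq peak lists of the parental embryonic stem cells, not of the knockout lines, were used here. All 4 lines carried a stable PiggyBac insertion. One held the empty vector (EV) and made no tagged protein, one HA-tagged wild-type H4 (H4WT), one H4K91R, in which that lysine is replaced by arginine, and one H4K91Q, in which it is replaced by glutamine. The labels name no change to the cells' own H4 genes, so the tagged protein is read here as an addition to them. Each group was 1 library, so no value below has a replicate error and no test between groups was made. Peak lists hold no expression values, so the labelled cell type was not checked against its markers.

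Clustered protocadherins are adhesion proteins of neurons, with an extracellular part that binds the same isoform on another cell. Each alpha and gamma variable exon has its own promoter and is spliced to constant exons shared by its cluster, whereas a beta gene is a single coding exon with no constant part. Individual neurons switch on a few variable promoters by a choice that involves DNA methylation, CTCF and cohesin, while the C-type isoforms follow other rules.

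The gene table showed this layout. The 14 alpha genes ended within 1240 bp of each other and the 21 gamma genes within 10 bp, whereas the 22 beta genes had 22 separate ends and a median length of 3418 bp (2340 to 5271 bp). Neighbouring starts lay a median of 7440 bp apart in the alpha cluster (chr18:36930285-37188897), 7842 bp in the beta cluster (chr18:37264998-37521419) and 5369 bp in the gamma cluster (chr18:37661775-37841873). The table gives no strand and no exons for chromosome 18, so a gene start is taken as the lower coordinate, the side opposite the shared constant exons.

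The 3 clusters held 156 peaks in all, each counted once. They were 88 of the 69158 H4WT peaks, 58 of the 49155 H4K91R peaks, 6 of the 14314 H4K91Q peaks and 4 of the 3007 peaks of the empty vector. List length moves with sequencing depth, which the peak lists do not give, so counts of different lists are given side by side and not as differences between the histones. Tagged peaks that touched an empty-vector peak were left out, which removed 4 H4WT peaks, 1 H4K91R peak and 0 H4K91Q peaks. That left 84, 57 and 6, called regions from here on.

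H4WT and H4K91R regions were denser in all 3 clusters than in the rest of chromosome 18. H4WT had 13.1 regions per 100 kb in the alpha cluster, 8.58 in the beta cluster and 15.5 in the gamma cluster, against 1.75 in the rest of the chromosome. Over the 3 clusters that was 12.1 per 100 kb, a 6.92-fold density. The 500 kb after the gamma cluster were as dense in H4WT, at 12.2 per 100 kb, and the 500 kb before the alpha cluster had 5.00. H4K91R had 9.28, 7.80 and 7.22 regions per 100 kb in the alpha, beta and gamma clusters, against 1.41 in the rest of the chromosome, and over the 3 clusters a 5.80-fold density. It had 5.20 per 100 kb after the gamma cluster and 5.60 before the alpha cluster. H4K91Q had 2.32 regions per 100 kb in the alpha cluster and none in the beta and gamma clusters, against 0.586 in the rest of the chromosome. The empty-vector list was dense there too, with 0.575 peaks per 100 kb over the 3 clusters against 0.0645 in the rest of the chromosome, an 8.93-fold density that rests on 4 peaks. The part of this background in the tagged lists was not tested.

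**Figure D1:**
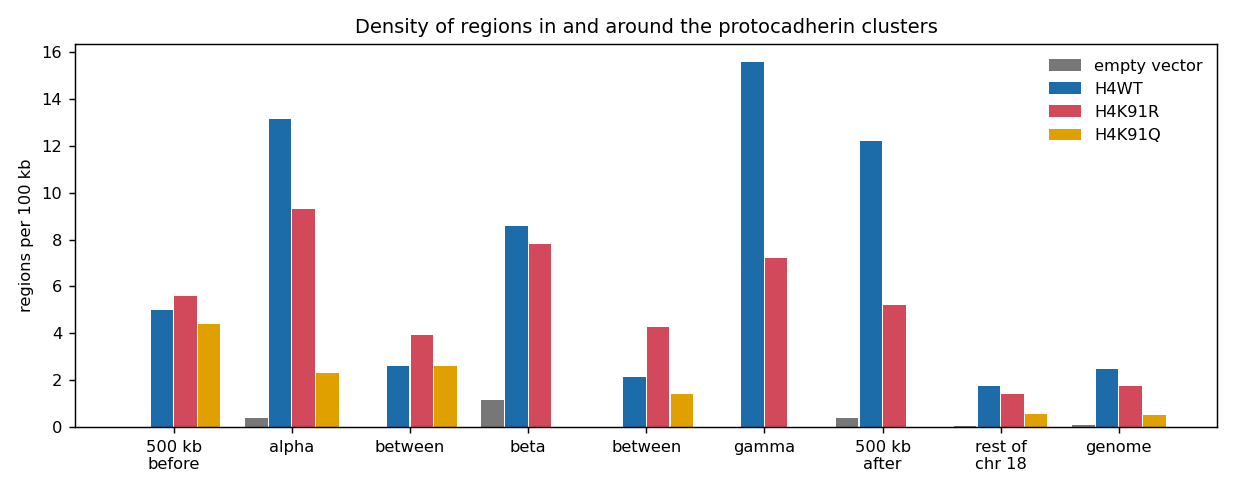
Regions per 100 kb (vertical axis) of the 4 lists in the 3 protocadherin clusters, in the gaps between them, in the 500 kb on each side, in the rest of chromosome 18 and in the genome. H4WT reaches 15.5 per 100 kb in the gamma cluster against 1.75 in the rest of the chromosome, and H4K91Q has bars in the alpha cluster but none in the beta and gamma clusters.

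Most regions within the clusters lay in a narrow range of distances downstream of a gene start. Of the 84 H4WT regions, 58 (69%) had their summit 1 to 3 kb downstream of a member's start, at a median of 1925 bp and with the middle 50% between 1770 and 2113 bp. Another 19 had their summit within 1 kb of a start, at a median of 263 bp downstream, and 7 lay elsewhere. H4K91R gave nearly the same picture, with 43 of 57 regions (75.4%) 1 to 3 kb downstream at a median of 1899 bp, 7 within 1 kb of a start and 7 elsewhere. In the beta genes, where the gene is the single exon, the 20 downstream H4WT summits and the 17 downstream H4K91R summits were all inside the gene, at a median of 56.3% and 57.4% of its length. Downstream regions were also wider than those at starts, with median widths of 373.5 against 226 bp in the H4WT list and 395 against 270 bp in the H4K91R list. The window of 1 to 3 kb was chosen after these positions had been seen.

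**Figure D2:**
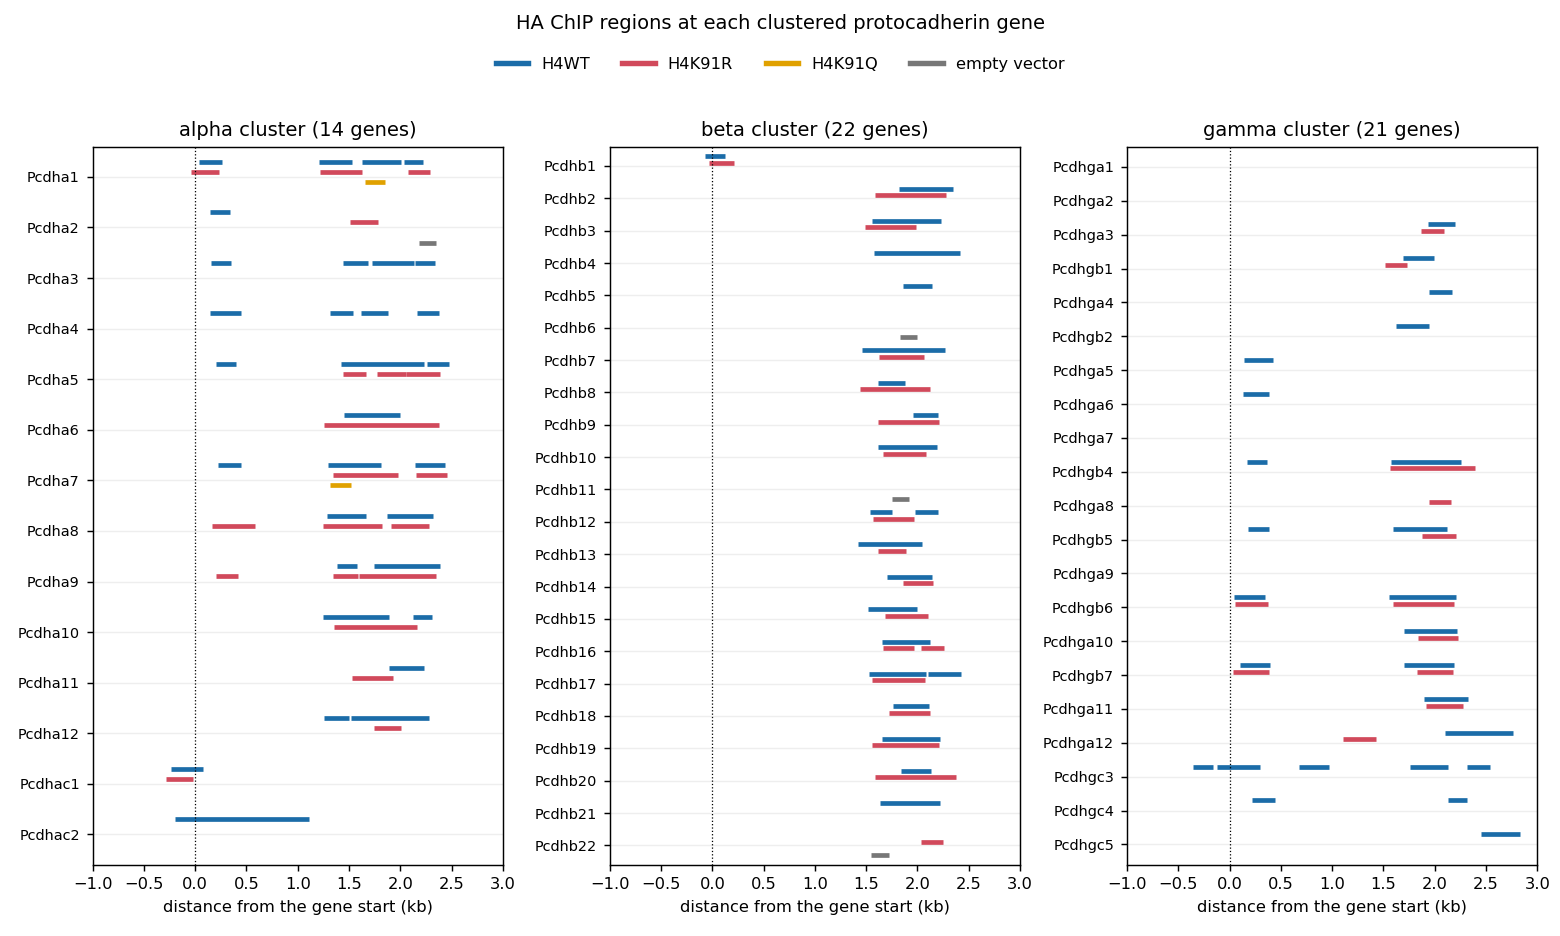
Extent of each region or empty-vector peak (coloured lines) by distance from the gene start in kb (horizontal axis) at every member, in chromosomal order from top to bottom. Tagged regions that touch an empty-vector peak are left out. Most H4WT and H4K91R lines stack between 1.5 and 2.5 kb downstream, the start itself is bare in all beta genes but Pcdhb1, and Pcdhga1, Pcdhga2, Pcdhga7 and Pcdhga9 have no line.

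Counted by gene, 44 of the 57 members (77.2%, 95% interval 64.2 to 87.3%) had an H4WT region 1 to 3 kb downstream of the start. Among 17492 other protein-coding genes with a known strand, the share was 19.9%. H4K91R had such a region at 36 members (63.2%, 49.3 to 75.6%), against 11.8% of the other genes. H4K91Q had one at 2 members (3.51%, 0.428 to 12.1%), against 0.52% of the other genes, a share that lies within this interval. The empty vector had one at 4 members (7.02%, 1.95 to 17.0%), against 0.549%. Intervals are exact binomial ones that cover counting error only, and members of a cluster share sequence and are not independent. The excess over the other genes was 3.89-fold for H4WT, 5.34-fold for H4K91R and 12.8-fold for the empty vector. With the tagged peaks that touch an empty-vector peak kept, 48 members had an H4WT region and 36 an H4K91R region in this window.

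At the starts the order was the opposite. H4WT had a region within 1 kb of the start at 17 of the 57 members (29.8%, 18.4 to 43.4%), against 53.8% of the other genes. H4K91R had one at 7 members (12.3%, 5.08 to 23.7%), against 32.1% of the other genes. H4K91Q and the empty vector had none, against 0.635% and 0.692% of the other genes. A downstream H4WT region without one at the start was found at 32 members (56.1%), and among the other genes at 4.26%. A start region without a downstream one was found at 5 members (8.77%), and among the other genes at 38.2%. For H4K91R, 31 members (54.4%) had only the downstream region, against 4.29% of the other genes.

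**Figure D3:**
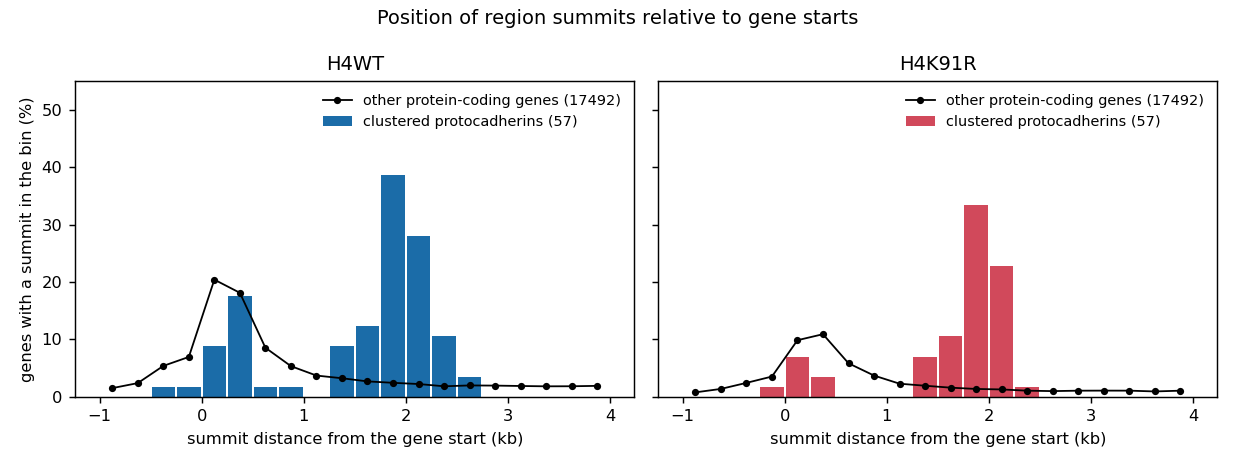
Share of genes (vertical axis, %) with an H4WT (left) or H4K91R (right) summit in each bin of 250 bp by distance from the gene start in kb (horizontal axis), for the 57 members (bars) and 17492 other protein-coding genes (line). The other genes peak just downstream of the start, at 20.4% for H4WT between 0 and 249 bp, and the members peak between 1750 and 1999 bp, with 22 members for H4WT and 19 for H4K91R.

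The alpha cluster had regions at starts and downstream of them. Among Pcdha1 to Pcdha12, the 12 alternate alpha isoforms, 11 had a downstream H4WT region and 6 a start H4WT region, and for H4K91R the counts were 10 and 3. The downstream shares were 91.7% for H4WT and 83.3% for H4K91R, against 19.9% and 11.8% of the other genes. The start shares, 50% and 25%, were no higher than the 53.8% and 32.1% of the other genes. Several regions side by side were more frequent in alpha genes than in beta or gamma genes: 9 alpha genes had 2 or more downstream H4WT summits, against 2 beta genes and 1 gamma gene. How many of the other protein-coding genes had 2 or more was not counted. Pcdha1, the first gene of the cluster, had regions of all 3 tagged histones. Its H4WT regions had an authors' fold enrichment (signal over local background at the summit, comparable only within a list) of 7.71 at the start and 9.73 at the strongest downstream place. Its H4K91R regions had folds of 4.77 at the start and 6.27 at the strongest downstream place. The latter met a neighbouring H4WT region (fold 9.19), and no H4K91R region met the strongest H4WT one. The strongest H4WT region (chr18:36931912-36932293) nevertheless adjoined this H4K91R region (chr18:36931504-36931911) directly, without a shared base. Pcdha3 and Pcdha4 each had 3 downstream H4WT regions and a start one, and no H4K91R region. Pcdha8 and Pcdha9 were the only members with an H4K91R region and no H4WT region at the start, with H4K91R folds of 6.02 and 6.14, and both had H4WT regions downstream. Pcdha6, Pcdha10, Pcdha11 and Pcdha12 had H4WT and H4K91R downstream and neither at the start. Pcdha5 and Pcdha7 had H4WT in both windows and H4K91R downstream only, and Pcdha2 had H4WT at the start and H4K91R downstream. After the place in a pseudogene that also held H4K91Q, the highest H4WT folds of the cluster were in Pcdha1 and Pcdha8 (9.58). Pcdha11 had the highest downstream H4K91R fold of the cluster (8.76). The H4WT fold at the start of Pcdha4 was 7.61.

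In the beta cluster the downstream place was nearly the only one. H4WT was present downstream at 18 of 22 genes (81.8%, against 19.9% of the other genes) and H4K91R at 16 (72.7%, against 11.8%). Of the beta genes, 15 had both and no start region. Pcdhb1 was the exception: it had H4WT and H4K91R at the start, with folds of 5.57 and 5.24, and neither downstream. Pcdhb4, Pcdhb5 and Pcdhb21 had H4WT alone. Pcdhb6 and Pcdhb11 had no tagged region after the filter, but each had an H4WT peak downstream that touched an empty-vector peak, as did Pcdhb22, where an H4K91R region remained. The strongest H4WT regions of the cluster were downstream in Pcdhb18 (fold 10.4), Pcdhb15 (9.99) and Pcdhb10 (8.83). The strongest H4K91R regions were downstream in Pcdhb9 (10.04), Pcdhb19 (9.65) and Pcdhb2 (7.78).

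The gamma genes are of A and B types, interspersed along the chromosome, with the C types last, and the counts of A and B genes were not alike. All 6 gamma B genes had a downstream H4WT region, 4 had a start H4WT region, and 5 had a downstream H4K91R region. Of 12 gamma A genes, 5 had a downstream H4WT region, 2 a start H4WT region and 5 a downstream H4K91R region, and none had an H4K91R region at the start. At starts, H4WT was at 66.7% of B genes (22.3 to 95.7%) and 16.7% of A genes, against 53.8% of the other genes. H4K91R was at 33.3% and 0%, against 32.1%. Downstream, H4WT was at 100% of B and 41.7% of A genes, against 19.9%. H4K91R was there at 83.3% and 41.7%, against 11.8%. The 4 members with no region of any list between their start and that of the next member were all gamma A genes, Pcdhga1, Pcdhga2, Pcdhga7 and Pcdhga9. Pcdhga5 and Pcdhga6 had an H4WT region at the start and none downstream, and Pcdhga8 had H4K91R alone. Pcdhga4 and Pcdhgb2 had H4WT alone, downstream. The remaining gamma A genes, Pcdhga3, Pcdhga10, Pcdhga11 and Pcdhga12, had H4WT and H4K91R downstream and neither at the start. Pcdhgb7 had the highest H4WT fold of all members downstream, 10.9, and 8.14 at its start, followed in the gamma cluster by Pcdhgb6 (8.75) and Pcdhga10 (8.62). At starts, H4K91R was highest in Pcdhgb6 (7.78) and Pcdhgb7 (6.65), and its downstream fold in Pcdhgb6 was 8.03. Pcdhgb4 had the highest H4K91R fold in the 3 clusters, 16.1 at chr18:37721943-37722771, above 99.1% of the regions of that list. The same place in Pcdhgb4 had an H4WT fold of 8.21, above 85.6% of that list. The A and B difference rests on 18 genes and was not tested.

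The 5 C-type genes, which lie last in the alpha and gamma clusters, are too few to set apart from the other genes. H4WT was at the start of 4 of them (80%, 28.4 to 99.5%, against 53.8% of the other genes), Pcdhac1 (fold 8.15), Pcdhac2 (7.56), Pcdhgc3 (6.47) and Pcdhgc4 (6.47). The Pcdhac1 fold was the highest at any member's start in that list. The Pcdhac2 region was 1311 bp wide and ran from position -199 to 1111 relative to the start, so it is also counted in the downstream window. Pcdhgc3 had 5 separate H4WT regions between positions -358 and 2537. Pcdhgc5 had H4WT only downstream, with a fold of 7.19. H4K91R was found at 1 C-type gene, at the start of Pcdhac1 (4.42), a share of 20% against 32.1% of the other genes, and downstream at 0 of 5, against 11.8%.

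H4K91Q regions were few and all in the alpha cluster. One lay downstream in Pcdha1 (chr18:36931937-36932136, fold 4.43) and one downstream in Pcdha7 (chr18:36975128-36975329, 4.13). The next 3 lay between Pcdha7 and Pcdha8, in the annotated pseudogene Gm36858 (chr18:36976294-36990270), with folds of 3.88, 7.65 and 7.48. The last lay between Pcdha12 and Pcdhac1 (chr18:37073781-37074030, 4.61). Only the regions of fold 7.65 and 7.48 had a −log10 q of 5 or more, so with that minimum no member had H4K91Q downstream. The Gm36858 place of fold 7.65 met an H4WT region (6.23) and an H4K91R region (chr18:36981124-36981656, 8.98). The Gm36858 place at chr18:36988579-36989579 also held the strongest H4WT region of all 3 clusters (fold 11.8) and the H4K91R region second in fold to that of Pcdhgb4 (13.2). Of the 6 H4K91Q regions, 5 met an H4K91R region (83.3%, 35.9 to 99.6%), against 53.5% of all H4K91Q regions in the genome, and 4 met an H4WT region (66.7%, 22.3 to 95.7%), against 18.8%. With 6 regions these intervals are wide.

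The 4 empty-vector peaks lay where the tagged histones lay. They were 2293 bp downstream of the start in Pcdha2 (chr18:36941391-36941553, fold 5.59), 1925 bp in Pcdhb6 (chr18:37335692-37335854, 4.64), 1807 bp in Pcdhb11 (chr18:37423170-37423332, 4.39) and 1626 bp in Pcdhb22 (chr18:37519898-37520071, 5.24). Of the H4WT peaks in the clusters 4.55% (1.25 to 11.2%) touched an empty-vector peak, against 3.01% of the whole H4WT list. For H4K91R the shares were 1.72% and 2.56%, and for H4K91Q 0% and 0.755%. The variable exons and the beta genes resemble each other in sequence, and how reads that fit several copies were placed is not given in the sources used here, so assignment to a single member is uncertain.

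H4WT and H4K91R regions coincided more at the downstream places than at the starts. Of the 57 H4K91R regions, 47 met an H4WT region (82.5%, 70.1 to 91.3%), against 54% of all H4K91R regions. Of the 84 H4WT regions, 46 met an H4K91R region (54.8%, 43.5 to 65.7%), against 37.7% of all H4WT regions. By position, 38 of 58 downstream H4WT regions (65.5%, 51.9 to 77.5%) and 5 of 19 start regions (26.3%, 9.15 to 51.2%) met H4K91R. By gene, 33 of the 44 members with H4WT downstream also had H4K91R there (75%, 59.7 to 86.8%), and 5 of the 17 with H4WT at the start had H4K91R there (29.4%, 10.3 to 56.0%). Among the other genes these shares were 50.8% and 56.4%. Where an H4WT and an H4K91R region met downstream, their summits were a median of 104 bp apart over 41 pairs. Among 3 members with H4K91R and no H4WT downstream, Pcdha2 and Pcdhb22 had an H4WT peak there that was left out for touching the empty vector, and the third was Pcdhga8.

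Merged across the tagged lists, the clusters held 92 separate places, 37 in the alpha, 25 in the beta and 30 in the gamma cluster. H4WT and H4K91R without H4K91Q held 41 of them, H4WT alone 37, H4K91R alone 8, and all 3 histones 3. H4WT alone held 14 of 21 places at starts and 19 of 60 downstream. In the gamma cluster 17 of 30 places were H4WT alone, and in the beta cluster 6 of 25. The same counts of places over the genome are not given. By gene, H4WT without H4K91R was at 12 of the 17 members with H4WT at the start and 11 of the 44 with it downstream. Among the other genes it was at 4101 of 9402 and 1709 of 3473.

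**Figure D4:**
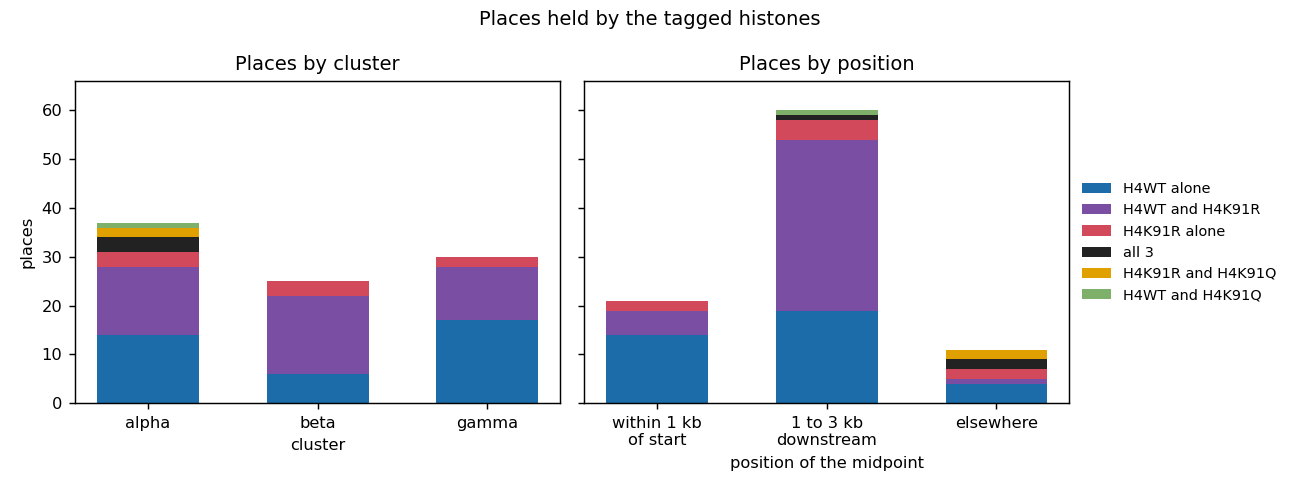
Number of places (vertical axis) held by each combination of the tagged histones, by cluster (left) and by position of the place's midpoint (right). H4WT and H4K91R share 35 of the 60 downstream places and 5 of the 21 places at starts, and every place with H4K91Q is in the alpha cluster.

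Counts were lower with shorter lists. With each tagged list held to its 14314 strongest peaks, the number in the H4K91Q list, the clusters kept 27 H4WT and 26 H4K91R regions, and each of these histones was downstream at 20 of 57 members (35.1%). The other genes then had 8.95% for H4WT and 4.29% for H4K91R. At the starts, 4 members had H4WT and 2 had H4K91R at that length, against 26.1% and 11.5% of the other genes. The share of H4K91R regions that met H4WT was 46.2% with these lists. The share over all H4K91R regions at that length is not given, so the value cannot be set against that of the full lists.

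Other protocadherins offered a comparison outside chromosome 18. Of the 12 protocadherin genes outside the clusters that were listed, 9 had a known strand. H4WT was downstream at 7 of these 9 (77.8%, 40.0 to 97.2%) and at the start of 6 (66.7%, 29.9 to 92.5%), against 19.9% and 53.8% of the other genes. H4K91R was downstream at 6 (66.7%, 29.9 to 92.5%) and at the start of 2 (22.2%, 2.81 to 60.0%), against 11.8% and 32.1%. At the start, both intervals hold the share of the other genes. Pcdh15, a protein of hair cells, Pcdh17 and Pcdh9 had H4WT downstream only, as most clustered genes did. Pcdh8, Pcdh10, Pcdh7 and Pcdh19 had H4WT in both windows. H4K91Q was at none of the 9. An H4WT region in the downstream window was therefore not seen in the clustered genes alone, and 19.9% of the other protein-coding genes had one. Where in that window the summits of these 9 genes lay was not examined. The difference between the clustered and other protocadherins was not tested.

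Tandem gene families differed from each other in these lists. Of 940 olfactory receptor genes (Olfr), 1.60% had an H4WT region at the start and 0.745% downstream. Of 116 vomeronasal receptor genes (Vmn2r), 2 had H4WT at the start and 0 downstream. Of 22 Hox genes, which pattern the body axis, 21 (95.5%) had H4WT at the start and 15 (68.2%) downstream. Over the 17492 protein-coding genes with a known strand, the H4WT shares were 53.8% at the start and 19.9% downstream. The Hox genes lay above both shares and the 2 receptor families below both. The 57 clustered protocadherins, with 17 and 44, were the only one of these 4 families with more genes marked downstream than at the start by H4WT. The downstream window was chosen from the positions in these same members, so this ranking of families is no separate evidence. The 9 protocadherins outside the clusters also had more genes with H4WT downstream (7) than at the start (6).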

How the data were processed

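HA ChIP-seq was made from fixed, sonicated chromatin with anti-HA beads, per the labels' protocols. Of 36 samples, 4 were used (1 library per group, grouped by title) and 32 (inputs, neural cells and knockout lines among them) were left aside. MACS2 called the peaks, and the build was mm10, per the submitters' processing notes. The aligner, the version of MACS2, any treatment of duplicate or multiply placed reads and the calling threshold were not given in the sources used here. The score deposited by the authors was, in 100% of peaks, 10 times −log10 q without its decimals. The fold enrichment, a ratio, is the authors' own value per peak and served only to describe and rank peaks within a list. The authors' −log10 p was not used, and their −log10 q served as a filter. The lowest deposited −log10 q lay between 1.40 and 1.77 in the 4 lists. No read numbers were in these files, so depth is unknown.

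Coordinates were made 1-based. No peaks of a list overlapped or adjoined. Peaks of different lists met where they shared at least 1 bp. A gene was counted where a region reached into its window. Starts of the 17492 comparison genes came from the RefSeq promoter table (GRCm38.p6), which holds 0 of the 57 members and no gene of chromosome 18. Their CpG content and motifs, and sequences, were therefore not analysed here. Densities use the span from the first to the last annotated gene of a chromosome. Intervals are exact Clopper-Pearson 95% ones (scipy 1.17.1, pandas 2.3.3, Python 3.11.15). The counting was tested on simulated peaks. The members, the gene lists and the alternatives (a −log10 q of 5 or more, lists of equal length, empty-vector overlaps kept, other windows, cluster spans and overlaps) were chosen with earlier results of these data known. The genes given with values were the 5 of highest fold at the start per tagged list, members with H4K91Q, or H4K91R without H4WT, at the start, members without regions and the C-type genes. For regions they were the 3 of highest fold per list and cluster and every H4K91Q or empty-vector region. Other members were named with their values already known.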

Additional observations from a re-analysis of the deposited data

How the results depend on the processing

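On recomputing, 36 values stayed within 1.5 times the reported count or within the interval of the reported share, and 22 did not. With a −log10 q of 5 or more, the clusters held 2 H4K91Q regions and 0 members had H4K91Q downstream, while 44 members had H4WT and 28 H4K91R downstream. This minimum also applied to the empty-vector list and removed all its peaks in the clusters (−log10 q 2.46 to 4.11). No tagged region there was then left out for touching one. The 44 members were therefore not the same genes as in the main count, with 20 beta and 12 gamma genes against 18 and 14. The share of H4WT regions meeting H4K91R was then 41.6%, and of the 2 H4K91Q regions 100% met H4K91R and 100% met H4WT. With lists of equal length (14314 peaks), H4WT had 27 regions, 4 members at the start and 20 downstream, H4K91R had 26, 2 and 20, and 46.2% of H4K91R regions met H4WT. A start window of 2 kb takes in the downstream places, and gave 48 members for H4WT, 37 for H4K91R and 2 for H4K91Q. Windows at both gene ends gave 38 for H4WT and 13 for H4K91R. Of all 21887 protein-coding genes, 58.4% and 37.9% had a region in such windows. For the members, both ends added 8 beta and 13 gamma genes for H4WT and 6 beta genes for H4K91R. The gamma genes end within 10 bp of each other, so the H4WT region at chr18:37841329-37841645 counts for all 13. The whole gene with 1 kb on each side gave 54, 48 and 12. Alpha and gamma genes overlap each other and share their ends, so 1 region can count for many members here. The 12 with H4K91Q were Pcdha1 to Pcdha12, which all span the region at chr18:37073781-37074030. No share over all genes is given for this window. An overlap of 50% of each region gave 57.9% of H4K91R regions meeting H4WT and 39.3% of H4WT regions meeting H4K91R. For none of these settings is the share over all regions given. Whether the clusters' excess in sharing holds under them is therefore not known. The downstream window and its 3 peak settings were chosen after seeing the data. No paired analysis was possible because each group is 1 library. Depth is unknown, so a gene without a region is a gene with no peak in that list and not one without the histone.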

Other observations

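The 500 kb on each side of the clusters were not alike. Before the alpha cluster there were 25 H4WT, 28 H4K91R and 22 H4K91Q regions, and after the gamma cluster 61, 26 and 0. H4K91Q thus had 4.40 regions per 100 kb on the alpha side, 2.32 in the alpha cluster and none in the gamma cluster or after it. The gap between the alpha and beta clusters held 2 H4WT, 3 H4K91R and 2 H4K91Q regions, and the gap between the beta and gamma clusters 3, 6 and 2. Of 29 neighbouring protein-coding genes, with 3 read-through genes that run across the clusters left out, 17 had H4WT within 1 kb of either end, 12 H4K91R and 0 H4K91Q. Of all 21887 protein-coding genes, 58.4%, 37.9% and 1.27% had such a region, so of the neighbours a share near that of all genes was marked by H4WT and H4K91R. Hdac3, a histone deacetylase, and Rell2, beyond the gamma cluster, were the 2 with an empty-vector peak there.

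Pcdhgb8 is annotated as a pseudogene within the gamma cluster and is no member. It had an H4WT summit 1714 bp and an H4K91R summit 1823 bp downstream of its start, with folds of 7.77 and 5.13, which is within the range of distances in the protein-coding members. The far end of the gamma cluster, where the shared constant exons lie, had 2 H4WT regions (chr18:37839997-37840216, fold 4.76, and chr18:37841329-37841645, 6.06) and none of the other lists.

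Of 15 genes for known regulators of the clusters with a known strand, 9 had H4WT and 6 had H4K91R at the start, and 0 had H4K91Q. These shares, 60% and 40%, were near those of the other genes (53.8% and 32.1%). Ctcf, which codes for the insulator protein that binds protocadherin promoters, had folds of 10.1 for H4WT and 4.51 for H4K91R in a region that reached both windows. Smc3, a cohesin subunit, had 12 and 8.98 at the start. Smchd1, a silencing protein, had H4WT (7.99) and no H4K91R region at the start. Wapl, the cohesin release factor, had both histones downstream only. Setdb1, Dnmt1, Dnmt3a, Stag1 and Smc1a had no region in either window.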
